A study of Mus musculus with 6 samples.

Results

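The CC chemokine ligands described here are 9 genes, Ccl2, Ccl3, Ccl5, Ccl7, Ccl8, Ccl11, Ccl17, Ccl20 and Ccl22, taken by gene name from a count table of 17572 genes. All 9 were in the table, and 7 passed the filter on low counts that left 14513 genes for testing. Ccl5 and Ccl17 did not pass it. The table came from RNA sequencing of skin scars of wild-type C57BL/6 mice, 2 weeks after the operation. Hypertrophic scars (HS, n = 3 libraries) came from the upper back, where the edges of the wound had been attached to the rib cage under tension. Normal scars (NS, n = 3 libraries) came from the lower back and had been sutured in place with no tension. Tension and position on the back differ together between the groups and cannot be told apart. Whether each library came from its own animal is not stated, and p-values here therefore reflect only the spread among these samples, part of which may be technical.

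CC chemokines are small secreted proteins, named for a pair of adjacent cysteines, that bind G protein-coupled receptors on leukocytes and guide these cells into tissue. In a healing wound they are made by macrophages, fibroblasts, endothelial cells and keratinocytes, often after NF-kB signalling by interleukin-1 or TNF, while some are raised by the type 2 cytokines interleukin-4 and interleukin-13. Ccl2 and Ccl7 draw monocytes through Ccr2, Ccl3 and Ccl5 act on Ccr1 among other receptors, Ccl11 draws eosinophils through Ccr3, mouse Ccl8 acts on Ccr8, Ccl17 and Ccl22 act on Ccr4, and Ccl20 acts on Ccr6.

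Summed counts per library ran from 20375395 to 27859889. HS replicate 2 lay nearest to NS on the first principal component of log2 CPM (counts scaled to the library total), which held 53.3% of the variance, and HS replicate 1 lay farthest. In bulk tissue, fewer cells of a type and less RNA per cell cannot be told apart. Of 15 monocyte and macrophage markers, all in the table, 14 were tested. Their summed level was 904.5 to 2480 CPM in HS and 631 to 806 CPM in NS. Lyz2 made up most of that sum, at 1730, 622.5 and 1163 CPM in HS replicates 1 to 3 and 357 to 473 CPM in NS. The difference of Lyz2 did not pass (edgeR adjusted p = 0.05151). Csf1r had few counts, at 19 or fewer in each library, and whether its RNA was that low or was lost in counting was not tested. The labelled tissue showed in 9 keratinocyte markers, summing to 14230 CPM or more in each library.

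The coding stretch that gives the family its name is shown for each gene, because it places the members beside each other and shows how far their RNA differs where the proteins share their signature. Each stretch is 54 bases of the reading frame (GENCODE transcripts of GRCm38, the build of the mm10 counts), 5′ to 3′, and the capitals mark the 2 adjacent cysteine codons. The pair was TGCTGC in the other members and TGTTGC in Ccl20.
Ccl2: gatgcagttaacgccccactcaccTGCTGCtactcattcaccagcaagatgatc
Ccl7: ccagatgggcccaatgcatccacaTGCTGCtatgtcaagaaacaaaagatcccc
Ccl8: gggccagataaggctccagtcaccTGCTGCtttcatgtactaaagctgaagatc
Ccl11: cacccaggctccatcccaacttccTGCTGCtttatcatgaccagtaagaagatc
Ccl3: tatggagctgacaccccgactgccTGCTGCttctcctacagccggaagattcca
Ccl5: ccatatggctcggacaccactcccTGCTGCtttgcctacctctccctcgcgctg
Ccl17: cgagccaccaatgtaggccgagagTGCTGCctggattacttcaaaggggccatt
Ccl22: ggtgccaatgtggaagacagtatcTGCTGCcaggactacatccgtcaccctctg
Ccl20: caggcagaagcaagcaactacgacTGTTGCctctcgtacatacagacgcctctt
Position by position, the windows of Ccl2 and Ccl3 shared 34 of 54 bases, those of Ccl2 with Ccl8 and with Ccl11 shared 32 each, and those of Ccl2 and Ccl7 shared 23. Over whole transcripts, 7 of the 9 members held no stretch of 25 identical bases in common with a transcript of any other annotated gene. The longest shared run was 34 bases for Ccl5 (with Ftx) and 31 bases for Ccl11 (with Hnrnpll), shorter than the 150-base reads. No exon of a member overlapped an exon of another annotated gene.

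Ccl7 was the only member that rose in HS at the threshold, about 4-fold, and Ccl2, Ccl3, Ccl11 and Ccl22 were higher in each HS library than in any NS library without passing. Ccl8, the member with the highest level, and Ccl20 did not pass either and overlapped between the groups. Of the 7 tested members, 1 was called higher and 0 lower at an adjusted p of 0.05 (edgeR quasi-likelihood test, Benjamini-Hochberg over 14513 genes), while over all tested genes 6.33% were called higher, 2.51% lower and 8.85% in either direction. The groups did not overlap for 5 of the 7, against 32.3% of all tested genes (17.2% with HS the higher). Unadjusted p-values lay under 0.05 for these 5, each higher in HS, against 26.3% of all tested genes (15.2% with HS the higher). The median log2 fold change of the 7 was 0.98 and that of all tested genes -0.01.

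**Figure D1:**
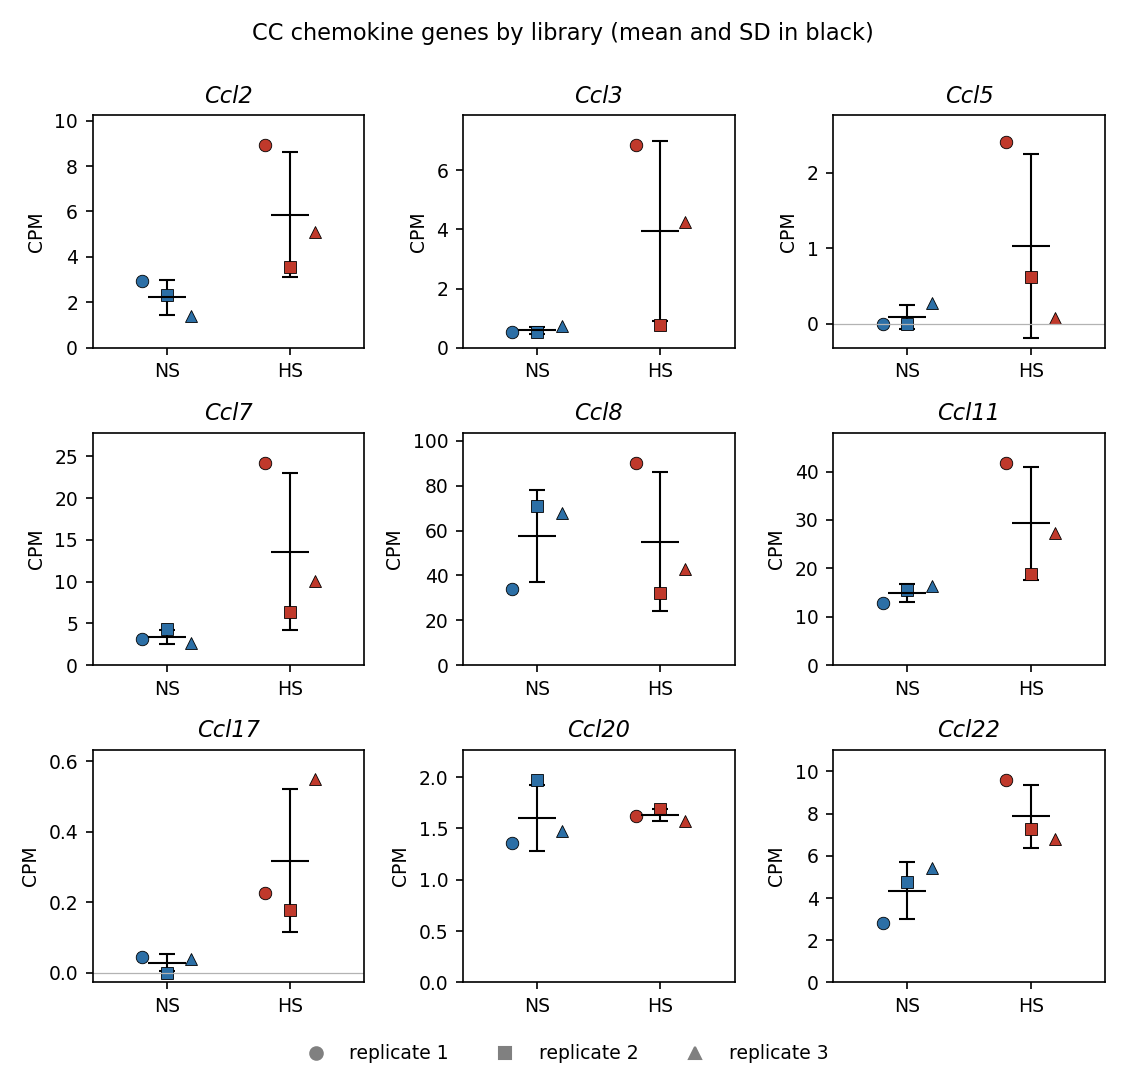
Each panel shows 1 gene, with the level in CPM on a linear axis for the NS libraries (blue) and HS libraries (red). Symbols mark the replicate number and the black bars the mean and SD of 3 libraries. HS replicate 1 is the highest HS library in 7 of the 9 panels, and Ccl8 and Ccl20 show groups that overlap.

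The monocyte chemokines Ccl7 and Ccl2 lie next to each other on chromosome 11. Ccl7 (chromosome 11, 82045712 to 82047525) stood at 24.2, 6.41 and 10.1 CPM in HS replicates 1, 2 and 3 and at 3.10, 4.27 and 2.68 CPM in NS replicates 1, 2 and 3. The groups did not overlap, and HS replicate 2 lay closest to NS. The means were 13.6 ± 9.42 and 3.35 ± 0.826 CPM (SD, n = 3), a 4.06-fold rise (log2 fold change 2.02 ± 0.495, SE, edgeR adjusted p = 0.04709). This call was lost without HS replicate 3 (adjusted p = 0.1027) and without NS replicate 1, 2 or 3 (adjusted p = 0.1559, 0.1302 and 0.1458). It was also lost with limma-voom (adjusted p = 0.09393), with the replicate number as a block in edgeR (adjusted p = 0.06778), and when genes of low count were kept in (adjusted p = 0.05717). Without HS replicate 1 the log2 fold change was 1.30 and the call held (adjusted p = 0.0293). Ccl2 (chromosome 11, 82035571 to 82037453), the main attractant of Ccr2-bearing monocytes, stood at 8.91, 3.56 and 5.09 CPM in HS and at 2.93, 2.31 and 1.40 CPM in NS. Again the groups did not overlap and HS replicate 2 was the lowest HS library, but the 2.65-fold difference did not pass (log2 fold change 1.41 ± 0.413, SE, edgeR adjusted p = 0.06553). It passed with DESeq2 (adjusted p = 0.01288) and without HS replicate 2 (adjusted p = 0.008468).

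Ccl3 and Ccl5 both signal through Ccr1. Ccl3 (chromosome 11, 83647844 to 83649355), made mainly by activated myeloid cells, stood at 6.84, 0.757 and 4.25 CPM in HS and at 0.525, 0.528 and 0.720 CPM in NS. HS replicate 2 lay just above the highest NS library, at 17 counts against 18 in the larger NS replicate 3, a gap within counting error. HS replicates 1 and 3 were well apart from NS. The 6.63-fold difference was the largest among the tested members and did not pass (log2 fold change 2.73 ± 0.725, SE, edgeR adjusted p = 0.05277). Without HS replicate 1 the log2 fold change was 2.08 (adjusted p = 0.1003). Ccl3 passed when genes of low count were kept in (adjusted p = 0.04781), with no factor beyond the library total (adjusted p = 0.04439), with DESeq2 (adjusted p = 0.001428) and without HS replicate 2 (adjusted p = 0.000289). Ccl5 (chromosome 11, 83525778 to 83530518), a product of activated T cells and other cells, was counted 64, 14 and 2 times in HS replicates 1, 2 and 3 and 0, 0 and 7 times in NS replicates 1, 2 and 3. Thus HS replicate 3 lay below NS replicate 3. Summed over the groups the rate was 10.3 times as high in HS (exact 95% interval 4.77 to 26.4, counting error only), and with no filter edgeR gave an adjusted p of 0.2131 and DESeq2 an adjusted p of 0.1051.

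Ccl11 (eotaxin; chromosome 11, 82057823 to 82062955) stood at 41.8, 18.8 and 27.3 CPM in HS and at 12.8, 15.5 and 16.3 CPM in NS. All HS libraries lay above all NS libraries, HS replicate 2 by the least. The 1.97-fold difference did not pass (log2 fold change 0.98 ± 0.273, SE, edgeR adjusted p = 0.06282) but did with DESeq2 (adjusted p = 0.004909) and without HS replicate 2 (adjusted p = 0.0008769). Without HS replicate 1 its log2 fold change was 0.63 and did not pass. Of its target cells, eosinophils, 5 of 8 listed markers were in the table. Their summed level was 8.82 to 13.2 CPM in HS and 7.26 to 13.7 CPM in NS, most of it from Ear2 (9.31 ± 2.49 and 9.26 ± 3.60 CPM, SD, n = 3). Prg2 was counted 0, 1 and 11 times and Ear1 0, 0 and 1 times in HS replicates 1 to 3, and neither was counted in NS.

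Ccl8 (chromosome 11, 82115185 to 82116799), which in mouse skin is made largely by macrophages, stood at 90.2, 31.98 and 42.9 CPM in HS and at 34.0, 70.8 and 67.8 CPM in NS. HS replicate 1 was the highest and HS replicate 2 the lowest of the 6 libraries, and NS replicate 1 lay near the lower HS libraries. The means were 55.0 ± 31.0 and 57.5 ± 20.4 CPM (SD, n = 3), with a log2 fold change of -0.06 (95% interval -1.13 to 0.9994, edgeR adjusted p = 0.9481). Leaving out single libraries turned the sign, from -0.62 without HS replicate 1 to 0.21 without HS replicate 2.

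Ccl22 and Ccl17 are neighbours on chromosome 8 and share the receptor Ccr4, found on regulatory and type 2 helper T cells. Ccl22 (chromosome 8, 94745590 to 94751699), made by dendritic cells and macrophages, stood at 9.59, 7.26 and 6.81 CPM in HS and at 2.84, 4.75 and 5.44 CPM in NS. The groups did not overlap, and here HS replicate 3, not replicate 2, was the lowest HS library. The 1.81-fold difference did not pass (log2 fold change 0.86 ± 0.289, SE, edgeR adjusted p = 0.09516) and passed only with DESeq2 (adjusted p = 0.04494) among 13 alternatives. Ccl17 (chromosome 8, 94810453 to 94812036) was counted 6, 4 and 15 times in HS and 1, 0 and 1 times in NS, so the groups did not overlap. Its summed rate was 11.2 times as high in HS (exact 95% interval 2.8 to 98, counting error only), with an adjusted p of 0.1723 in edgeR with no filter and 0.1413 in DESeq2.

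Ccl20 (chromosome 1, 83116766 to 83119167), a keratinocyte product that draws Ccr6-bearing cells, was nearly level. It stood at 1.62, 1.69 and 1.57 CPM in HS and at 1.36, 1.97 and 1.48 CPM in NS, so that the HS libraries lay inside the range of NS. The log2 fold change was 0.03 (95% interval -0.86 to 0.91, edgeR adjusted p = 0.9782). The 9 keratinocyte markers summed to 14230 to 24250 CPM in HS and 20930 to 29380 CPM in NS, and their part in the level of Ccl20 was not tested.

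Promoter letters are shown for Ccl3 and Ccl20, the tested members with the largest and the smallest difference, as 250 bases before the RefSeq start (GRCm38.p6; Ccl3 on the minus strand, chr11:83649379-83649628, and Ccl20 on the plus strand, chr1:83116516-83116765). The capitals mark matches to GGGNNNNNCC on either strand, a loose form of the NF-kB site.
Ccl3: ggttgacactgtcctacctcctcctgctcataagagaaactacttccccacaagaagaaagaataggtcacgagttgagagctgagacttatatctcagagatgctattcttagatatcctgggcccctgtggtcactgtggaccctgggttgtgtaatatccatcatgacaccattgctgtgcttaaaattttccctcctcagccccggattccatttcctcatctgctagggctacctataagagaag
Ccl20: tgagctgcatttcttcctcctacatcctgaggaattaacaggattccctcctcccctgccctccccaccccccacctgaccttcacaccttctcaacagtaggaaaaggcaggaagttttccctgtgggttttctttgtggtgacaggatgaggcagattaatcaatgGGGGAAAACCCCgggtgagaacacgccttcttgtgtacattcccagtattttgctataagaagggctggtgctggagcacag
Overlapping matches to GGGNNNNNCC lay between 82 and 71 bases before the start of Ccl20, where 1 match also met the stricter NF-kB consensus, and Ccl3 held none. Of 32851 promoters of that length, 45.8% held GGGNNNNNCC and 7.25% the stricter consensus, both strands searched. Among the 5 members with an entry, Ccl22 also held GGGNNNNNCC, and Ccl8 and Ccl17 did not. TTCNNNNGAA, the form bound by Stat6, was found in Ccl17 (TTCTCTGGAA, 154 to 145 bases before the start) and in 5.85% of all promoters. These matches describe letters in the window and no more. Ccl2, Ccl5, Ccl7 and Ccl11 had no entry.

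Per kilobase of exon, Ccl8 led both groups, at 113 CPM per kb in NS (66.6 to 139 over libraries) and 108 in HS (62.6 to 177), above the next member in each group without overlap. Ccl11 followed at 13.7 in NS and 27.1 in HS, then Ccl7 at 4.18 and 16.9. In NS these 3 did not overlap with each other, while in HS the range of Ccl11 overlapped that of Ccl7 (8.01 to 30.3). Ccl2, at 1.94 in NS and 5.14 in HS, and Ccl22, at 1.87 and 3.39, overlapped in both groups. Ccl3 ranked 7 in NS (0.771) and 4 in HS (5.15), where its range of 0.988 to 8.93 overlapped that of Ccl2. Ccl5 and Ccl17 were the lowest in both groups. Ccl8 made up 75.8%, 84.3% and 84.5% of the members' summed CPM per kb in NS replicates 1 to 3 and 65.3%, 64.3% and 61.3% in HS, and Ccl7 made up 4.41%, 3.25% and 2.13% in NS and 11.2%, 8.23% and 9.18% in HS. Neither share overlapped between the groups. Shares of 1 total are tied to each other, and the level of Ccl8 itself did overlap between the groups.

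**Figure D2:**
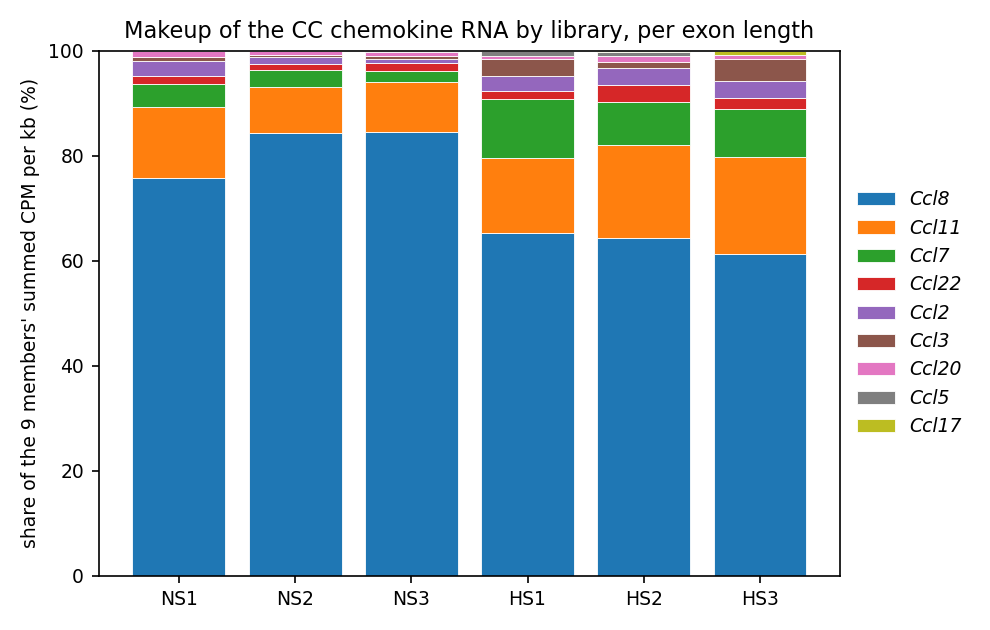
Stacked bars give the share of each member in the summed CPM per kb of exon of the 9 members, in percent, for the 3 NS and 3 HS libraries. Ccl8 (blue) takes 75.8% to 84.5% in NS and 61.3% to 65.3% in HS, while the shares of Ccl7 and Ccl11 are larger in each HS library than in any NS library.

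The members did not share 1 order of the HS libraries. HS replicate 1 was the highest of the HS libraries for 7 of 9 and replicate 2 the lowest for 6. Ccl2, Ccl3, Ccl7, Ccl8 and Ccl11 had replicate 1 above 3 above 2, the order also of the summed levels of many other lists. These were the macrophage (2480, 1625 and 904.5 CPM), fibroblast (55570, 43960 and 26520 CPM), endothelial (493.5, 479.3 and 294.4 CPM), dendritic, T and NK, and eosinophil markers and the NF-kB and type 2 genes. HS replicates 3 and 2 lay close for the dendritic (458.3 and 445.4 CPM), T and NK (29.9 and 28.9 CPM) and eosinophil sums (8.97 and 8.82 CPM). Lyz2 made up most of the macrophage sum, Postn of the type 2 sum and Col1a1, Col1a2 and Col3a1 of the fibroblast sum. Not every gene had this order, as Itgax at 16.4, 21.4 and 32.7 CPM and Ear2 at 12.2, 8.06 and 7.69 CPM in HS replicates 1 to 3. The part of these lists in the chemokine levels was not tested. The summed neutrophil markers stood at 211.5, 128.2 and 378.8 CPM in HS replicates 1 to 3, against 41.9 to 53.7 CPM in NS. S100a8 and S100a9 made up most of that sum and were highest in HS replicate 3. So were Ngp, Ltf and Camp, at 4.21, 2.67 and 0.22 CPM in that library. Cxcr2, at 28.9, 10.3 and 8.86 CPM, and the rest of that list were highest in HS replicate 1. As log2 difference from the NS mean, HS replicates 1, 2 and 3 stood at 3.37, 0.33 and 2.70 for Ccl3, at 2.85, 0.95 and 1.59 for Ccl7, at 2.03, 0.73 and 1.23 for Ccl2, and at 0.72, -0.77 and -0.35 for Ccl8. Ccl22 was more even, at 1.18, 0.78 and 0.69.

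Likeness of profiles was measured as the root mean square difference of centred log2 CPM over the 6 libraries. Among the tested members, Ccl11 and Ccl22 were the most alike (0.292) and Ccl2 and Ccl7 came next (0.398), while Ccl3 and Ccl20 were the least alike (1.43). Of 13582 other genes with at least 1 CPM on average, those nearest to Ccl7 were Cd300ld (0.14), Grrp1 (0.154) and Tlr2 (0.157), and those nearest to Ccl2 were Mctp1 (0.124), Rasal3 (0.126) and Cd300lb (0.129). The nearest to Ccl8 were Serpina3n (0.107), P2ry12 (0.167) and Tmem25 (0.21). Ccl3 had Ptgis (0.391), Pcdh20 (0.395) and Cd14 (0.415), and only 17 genes within 0.5, against 329 for Ccl7 and 3383 for Ccl11. Ccl11 was nearest to Clec4a3 (0.0522), Cd97 (0.0668) and Crip1 (0.0687), Ccl22 to Sema4f (0.103), Dact3 (0.134) and Serpinb1a (0.134), and Ccl20 to Fam207a (0.0165), Thap11 (0.044) and Zscan21 (0.0566). Ccl20, whose level varied little, had 11406 genes within 0.5, so its small distances set these 3 little apart from other level genes.

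The members on chromosome 11 lie in a pair of gene groups, along which the differences varied. In the group that starts with Ccl2, Ccl7 lies 10.1 kb on, Ccl11 22.3 kb, Ccl12 66.3 kb and Ccl8 79.6 kb. The log2 fold changes along it were 1.41, 2.02, 0.98, 1.23 and -0.06, so Ccl8 was the lowest of these 5. In the other group, Ccl5, Ccl9, Ccl6 and Ccl3 lie within 122.1 kb, and the 3 that were tested stood at 1.36 for Ccl9, 1.04 for Ccl6 and 2.73 for Ccl3.

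**Figure D3:**
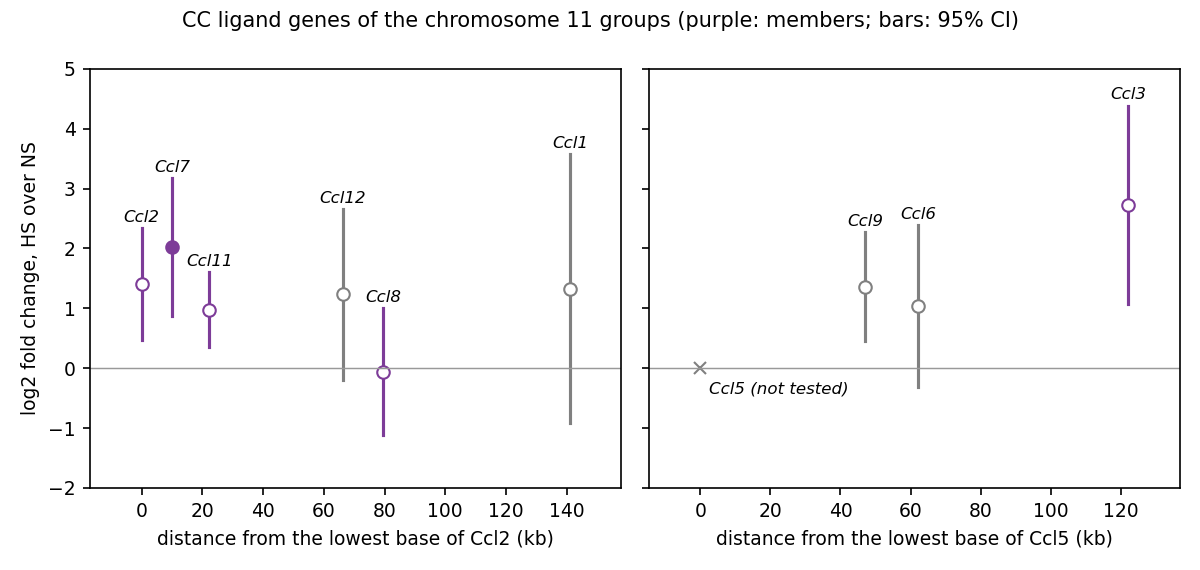
The log2 fold change of HS over NS (points, filled where the adjusted p is under 0.05) with its 95% confidence interval is drawn against the distance in kb from the lowest base of Ccl2 (left) or Ccl5 (right). Purple marks members and grey other CC ligands, and a cross marks Ccl5, which was not tested. Ccl8, 79.6 kb from Ccl2, lies at -0.06 while the points of its neighbours lie above 0, with intervals of Ccl12 and Ccl1 that reach below 0.

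Of 15 other CC ligands listed, 11 were in the table, 9 were tested and 0 passed in edgeR, where 8.85% of all tested genes were called. Unadjusted edgeR p-values lay under 0.05 for 3 of the 9 (Ccl9, Ccl21a and Ccl27a), against 26.3% of all tested genes. DESeq2 called 2 (Ccl9, adjusted p = 0.02878, and Ccl21a, adjusted p = 0.026), against 15.5% of all genes it gave an adjusted p. Ccl9 and Ccl6, abundant myeloid chemokines of the mouse, had means of 124 ± 65.0 and 154.5 ± 129 CPM in the HS libraries, against 48.2 ± 9.36 and 75.2 ± 11.3 CPM in the NS libraries (SD, n = 3). Their folds were 2.57 (adjusted p = 0.07725) and 2.06 (adjusted p = 0.2953), and without HS replicate 1 the log2 fold change of Ccl6 was 0.10, against 1.04. Ccl21a, the lymphatic ligand of Ccr7, was 1.56-fold higher (adjusted p = 0.07443). Reads shared with its near-identical copies could be dropped or counted with it, since the handling of such reads is not given. Ccl12, a mouse ligand of Ccr2, was 2.35-fold higher (adjusted p = 0.2522), the skin ligand Ccl27a 1.39-fold (adjusted p = 0.17), Ccl1 2.52-fold (adjusted p = 0.4311) and Ccl28 1.52-fold (adjusted p = 0.6511), none of them passing. Single libraries moved 3 of these folds by over 1.5 times. On the log2 scale, Ccl12 stood at 0.31 without HS replicate 1, against 1.23, and without NS replicate 2 Ccl1 stood at 2.89, against 1.33, and Ccl28 at 1.46, against 0.61. The exons of Ccl27a and Ccl25 overlap those of a gene on the other strand. Ccl24, an eotaxin, and Ccl25 had log2 fold changes of -0.41 (adjusted p = 0.625) and -0.22 (adjusted p = 0.8923). Ccl19 and Ccl27b, with at most 19 and 61 counts in a library, were not tested.

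Of 10 CC receptors described here, 6 were tested and 0 passed in edgeR, where 8.85% of all tested genes were called. Unadjusted edgeR p-values lay under 0.05 for 2 of the 6 (Ccr1 and Ccr7), against 26.3% of all tested genes. DESeq2 called 1, Ccr1 (adjusted p = 0.008626), against 15.5% of all genes it gave an adjusted p. Ccr1 stood at 47.5, 7.62 and 20.1 CPM in HS and 3.98, 5.91 and 2.76 CPM in NS, without overlap (log2 fold change 2.58 ± 0.68, SE, edgeR adjusted p = 0.06598; 1.73 without HS replicate 1). Ccr2, the receptor of Ccl2 and Ccl7, stood at 126, 38.6 and 62.5 CPM in HS and 45.3, 53.8 and 55.0 CPM in NS, where HS replicate 2 lay below every NS library (0.56 ± 0.402, SE, adjusted p = 0.4263; -0.022 without HS replicate 1). Ccr3, the receptor of Ccl11, had a log2 fold change of 0.44 (adjusted p = 0.6654) and Ccr4, the receptor of Ccl17 and Ccl22, of -0.04 (95% interval -0.65 to 0.58, adjusted p = 0.9509). Ccr7 was 4.88-fold higher at 0.0437 to 2.63 CPM over all libraries (log2 fold change 2.29, adjusted p = 0.1827), a value of 1.70 without HS replicate 1 and of 4.54 without NS replicate 2. Ccr9 had a log2 fold change of -0.41 (adjusted p = 0.4788). Ccr6, the receptor of Ccl20, was counted 21, 4 and 7 times in HS and 2, 1 and 0 times in NS, and Ccr8, the receptor of mouse Ccl8, 11, 0 and 2 times in HS and 4, 0 and 0 times in NS. Ccr1l1 and Ccr10 had at most 10 and 1 counts in a library.

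Ccrl2, which binds chemerin and does not signal like a chemokine receptor, was the only receptor of the wider family that rose. It stood at 3.46, 1.603 and 2.23 CPM in HS and at 0.175, 0.576 and 0.0799 CPM in NS, a rise of 8.88-fold (log2 fold change 3.15 ± 0.703, SE, edgeR adjusted p = 0.02997), with 4, 12 and 2 counts in NS replicates 1 to 3. The call was lost without HS replicate 1 or 3 (adjusted p = 0.05791 and 0.09414) and without NS replicate 1, 2 or 3 (adjusted p = 0.1161, 0.0671 and 0.09686), and without NS replicate 2 the log2 fold change was 4.21. Of the scavenging receptors, Ackr3 was 2.03-fold (adjusted p = 0.1165), Darc (Ackr1) 1.66-fold (adjusted p = 0.2859) and Ackr2, which clears inflammatory CC chemokines, 1.20-fold higher (adjusted p = 0.6714). Ackr4 had a log2 fold change of -0.21 (adjusted p = 0.4144). None of these 4 passed, and exons of Ackr1, Ackr4 and Ccr9 overlap those of another gene.

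**Figure D4:**
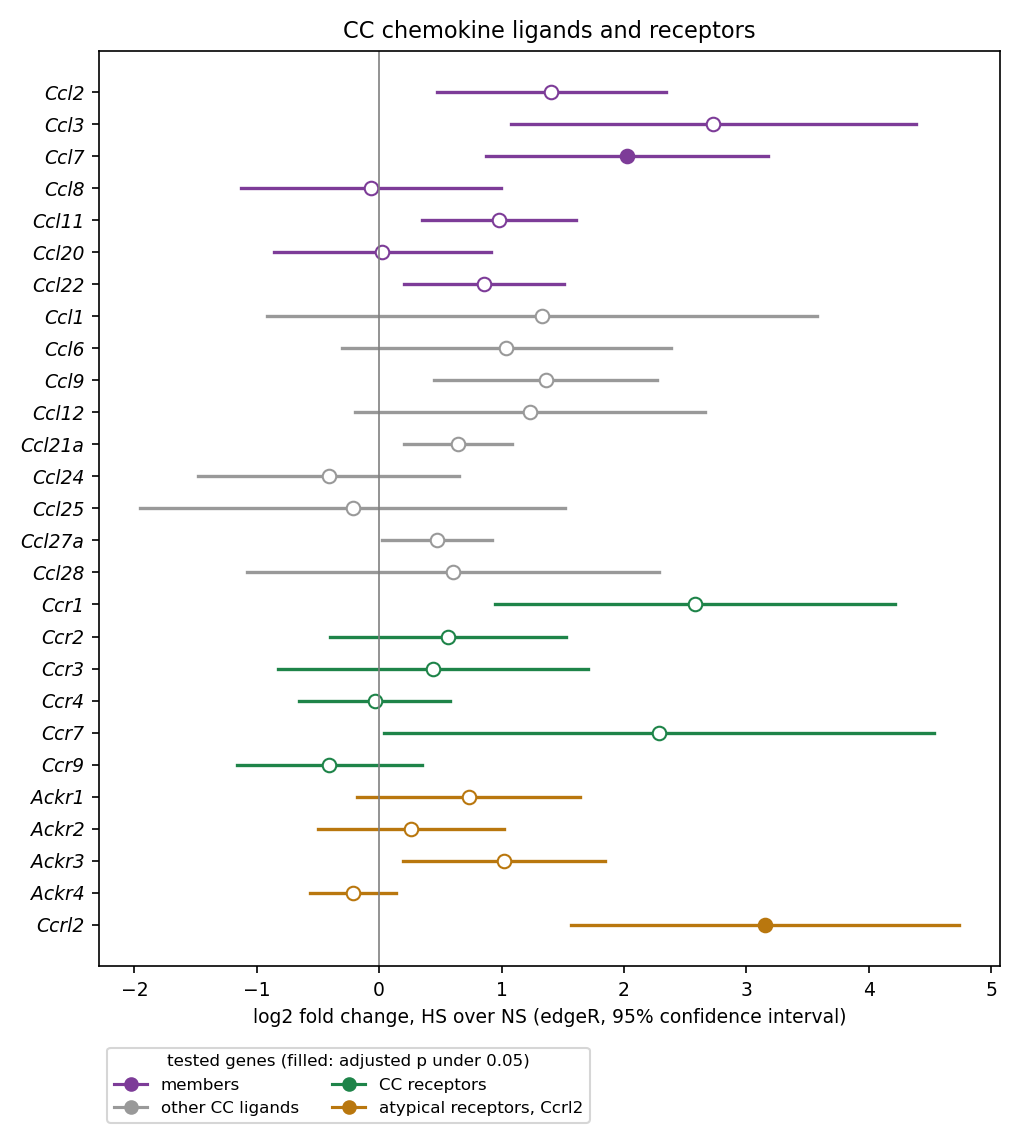
Points give the log2 fold change of HS over NS with the 95% confidence interval for the tested members, other CC ligands, CC receptors and atypical receptors with Ccrl2. Filled points passed an adjusted p of 0.05, which Ccl7 and Ccrl2 did, and the intervals of Ccl8, Ccl20 and Ccr4 centre near 0.

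Of 20 genes that induce these chemokines through NF-kB or mark it, 17 were tested, 3 rose and 0 fell, where 8.85% of all tested genes were called. Il1b, which encodes interleukin-1 beta, rose 19.4-fold (edgeR adjusted p = 0.03379; HS mean 16.3 ± 14.7 CPM, NS mean 0.836 ± 0.298 CPM, SD, n = 3), with 864, 83 and 351 counts in HS replicates 1 to 3. The TNF receptor Tnfrsf1b rose 2.86-fold (adjusted p = 0.03662) and the interleukin-1 receptor Il1r1 1.33-fold (adjusted p = 0.04787). Among those that did not pass were Tnf, Il1a, Nfkbia and Tnfaip3 (edgeR adjusted p = 0.561, 0.6204, 0.1393 and 0.2899). The calls of Il1b and Tnfrsf1b were lost when genes of low count were kept in (adjusted p = 0.06276 and 0.05242). Of 17 type 2 genes, 16 were in the table and 12 tested, of which 5 rose and 1, Retnla, fell (log2 fold change -3.19, adjusted p = 0.01364). Il33 rose 3.76-fold (adjusted p = 0.001836) and its receptor Il1rl1 9.64-fold (adjusted p = 0.02013), and the others that rose were Il13ra1, Arg1 and Postn, of which Arg1 lost its call when genes of low count were kept in (adjusted p = 0.08994). Il4 had 3, 2 and 8 counts in HS and 0 in NS, and Il13 at most 6 counts in a library.

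Cells that can make or follow these ligands were read from marker lists in the same fit. Beside the counts below, 6.33% of all tested genes were called higher, 2.51% lower, and 48.7% had a positive log2 fold change. Of 14 tested monocyte and macrophage markers 2 rose, Cx3cr1 (4.98-fold, adjusted p = 0.008114) and Trem2 (5.65-fold, adjusted p = 0.01271), and 0 fell. The log2 fold change was positive for 11 of the 14, with a median of 1.35. The pair with the highest level, Lyz2 and Cd163, did not pass (2.80-fold, adjusted p = 0.05151, and log2 fold change -0.69, adjusted p = 0.3462). Positive values were also found for 12 of 12 tested T and NK, 9 of 9 fibroblast, 7 of 7 endothelial, 7 of 8 mast cell and 5 of 6 neutrophil markers. The medians of these lists were 1.27, 1.37, 1.18, 0.668 and 3.3. Other counts were 8 of 13 dendritic, 4 of 8 skeletal muscle, 3 of 9 keratinocyte, 2 of 3 eosinophil and 2 of 2 B and plasma cell markers. Of 13 dendritic and Langerhans markers 2 rose, Itgax and Fscn1, and 0 fell, with Epcam and H2-Aa not among them (adjusted p = 0.4071 and 0.4332). Of 12 tested T and NK markers 1 rose, Cd4 (3.10-fold, adjusted p = 0.03661), and Cd3g did not pass (1.32-fold, adjusted p = 0.3994). The summed T and NK level was 28.9 to 46.6 CPM in HS and 19.1 to 19.8 CPM in NS. Of 6 tested neutrophil markers 3 rose: S100a9 (31.1-fold, adjusted p = 0.01036), S100a8 (8.87-fold, adjusted p = 0.02944, and 0.06625 when genes of low count were kept in) and Retnlg, with 48, 16 and 23 counts in HS and 0 in each NS library (adjusted p = 0.02017). Of 8 tested mast cell markers 6 rose, among them Mcpt4 (1.53-fold, adjusted p = 0.01714) but not Kit (adjusted p = 0.9654), and 1 of 2 tested B and plasma cell markers rose, Jchain (Igj in the table; 6.68-fold, adjusted p = 0.01093), while Cd79b did not (adjusted p = 0.3797). None of 3 tested eosinophil markers passed, Ear2 and Siglecf (Siglec5 in the table) standing at adjusted p = 0.9919 and 0.6071. Of the other sources, 7 of 9 fibroblast markers rose (Col3a1 4.05-fold, adjusted p = 0.01255, and Col1a2 2.70-fold, adjusted p = 0.01328), as did 6 of 7 endothelial markers (Cdh5 2.61-fold, adjusted p = 0.01783, and Pecam1 2.96-fold, adjusted p = 0.008279). Of 9 keratinocyte markers 1 rose (Krt16) and 2 fell (Krt5 and Lor), with Krt10 and Krt1 not passing (adjusted p = 0.1429 and 0.1676) and with the calls of Krt16 and Lor lost when genes of low count were kept in (adjusted p = 0.08654 and 0.06566), and of 8 skeletal muscle markers 1 rose (Myh4) and 2 fell (Myh2 and Mb), with Myh1 and Acta1 not passing (adjusted p = 0.9925 and 0.7455). Genes named here beyond the 2 most abundant of a list were chosen after their values were seen, and calls of these lists and of the inducers were compared under the filter alternative alone. The part of any of these cells in the chemokine levels was not tested.

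The number of members called changed with the setting of the test, as did the share of all tested genes called, given after each count. It was 1 with DESeq2-type size factors in edgeR (8.81%), 2 with no factor beyond the library total (10.4%), 1 without the filter (7.69%), 1 at a filter of 1 CPM in 3 libraries (9.51%), 5 with DESeq2 (15.5%), 0 with limma-voom (6.51%) and 0 with the replicate block (6.9%). Leaving out HS replicate 1 gave 1 member (7.4%), HS replicate 2 gave 4 (22%), HS replicate 3 gave 0 (1.01%), and any of NS replicates 1, 2 and 3 gave 0 (0.635%, 0.169% and 0.326%).

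**Figure D5:**
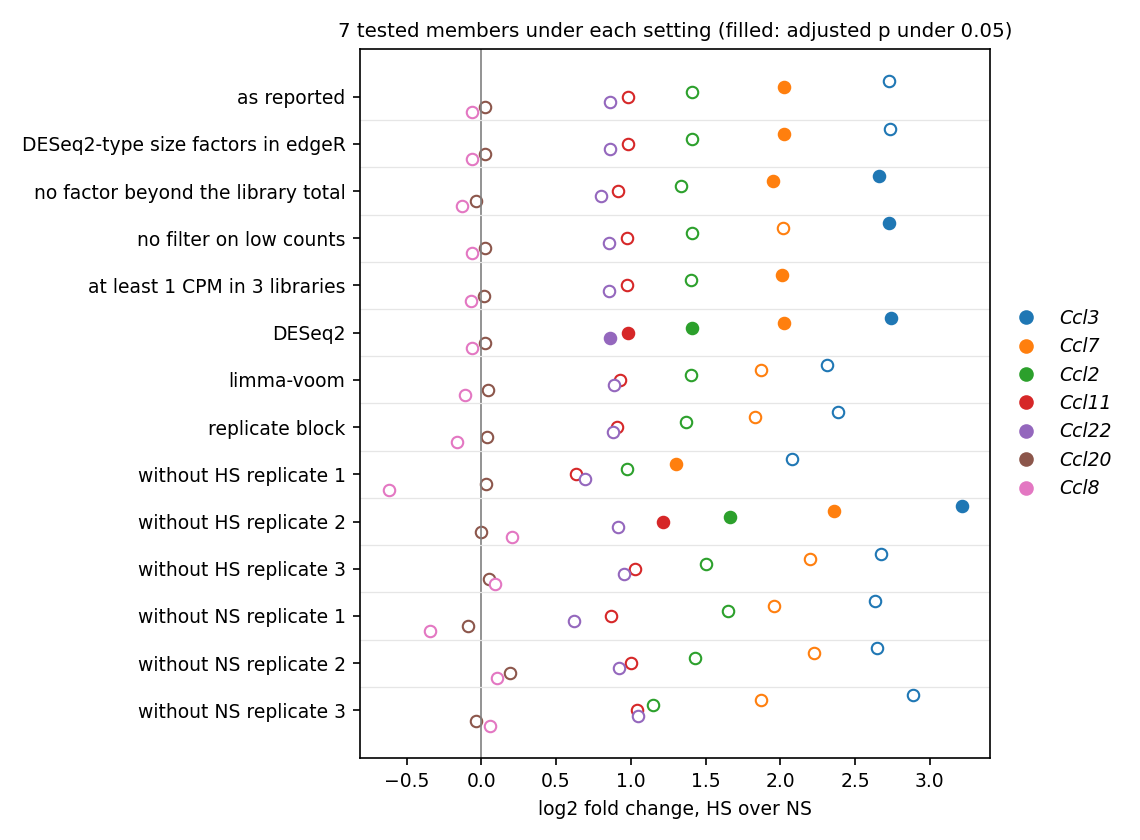
Each row is 1 setting of the test and each coloured point the log2 fold change of HS over NS of 1 of the 7 tested members, filled where its adjusted p is under 0.05. Ccl3 has no point at the filter of 1 CPM in 3 libraries, which removed it. Ccl2, Ccl3, Ccl7, Ccl11 and Ccl22 stay above 0 in every row, with 5 filled points for DESeq2 and 0 for limma-voom.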

How the data were processed

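RNA sequencing covered 6 skin scar libraries (150 bp paired ends after removal of ribosomal RNA, per the labels' protocols). The authors deposited whole-number counts for each gene, not normalized (per the file headers). HISAT2 2.0.4, HTSeq 0.9.1, cutadapt 1.9.3 and edgeR are named, with mm10, in the submitters' processing notes; the strand setting was not given in the sources used here. Columns that the authors had normalized were left out.

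The test of HS against NS used edgeR 4.0.16 (R 4.3.3): filterByExpr by group (minimum count 10), TMM scaling, and a robust quasi-likelihood fit with the group as the only term, adjusted by Benjamini-Hochberg over 14513 genes at 0.05. The procedure was tested on simulated data. Groups and replicate numbers came from the sample titles. CPM uses TMM-scaled totals; 1 count was worth 0.0359 to 0.0491 CPM. Exon lengths and positions (1-based) are from GENCODE M21, which matched 17398 of 17572 gene identifiers; exon lengths join all annotated transcripts, retained introns included. Symbols that differ from the table were matched by gene identifier. No libraries of a group were copies of each other (chi-square per gene 14.2 or more). The genes to be named by rule were all members, other CC ligands and receptors, the 3 smallest p-values in each inducer list, the 2 most abundant markers of each cell list, and the 3 profiles nearest to each tested member. Further genes of the inducer and cell lists were named outside this rule, after their values were seen. A few listed genes are not reported here and were left out of the list counts and sums. Members and lists were chosen with earlier results of these data known. Alternatives were other scalings, filters, DESeq2 1.42.0, limma-voom (limma 3.58.1), the replicate block and each library left out; for ligands and receptors that are no members they were added after seeing the data.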

Additional observations from a re-analysis of the deposited data

How the results depend on the processing

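The number of genes called was 1284 as reported (919 higher, 365 lower), 2405 with DESeq2 (1614 higher, 791 lower), and between 25 and 3257 with 1 library left out (20 to 2000 higher, 5 to 1257 lower). With no factor beyond the library total 585 were lower and 930 higher. The count of members called was 1 as reported, 2 with no factor beyond the library total, 5 with DESeq2, 0 with limma-voom, 0 with the replicate block, and 0 to 4 with 1 library left out. The count of CC receptors called was 0 as reported, 1 with no factor beyond the library total, 1 with DESeq2 and 0 to 1 with 1 library left out. The direction of Ccl2, Ccl3, Ccl7, Ccl11 and Ccl22 held in every alternative that gave a value; Ccl3, Ccl1, Ccl25 and Ccr7 gave none at 1 CPM in 3 libraries, and Ccl1 none without HS replicate 1, since the filters removed them. Ccl20 turned to -0.033 with no factor beyond the library total. With 1 library left out, log2 fold changes ran from -0.62 to 0.21 for Ccl8, -0.092 to 0.19 for Ccl20, -1.23 to 0.27 for Ccl25, -0.022 to 0.87 for Ccr2, -0.36 to 0.13 for Ccr4 and -0.069 to 0.45 for Ackr2, so that the sign of each depended on single libraries; the cause was not tested. The labels do not say whether the replicate numbers pair the samples. Deviations of same-numbered libraries correlated at 0.018, 0.0133 and 0.036. Every library except NS replicate 2 correlated best with its own number across the groups, a hint from the data and not from the design. Values this small cannot show whether same-numbered libraries are paired. The replicate block in edgeR gave 1001 calls, with Ccl7 at an adjusted p of 0.06778. Ccl5, Ccl17, Ccr6 and Ccr8 are limited by depth, since 3 counts were worth 0.108 to 0.147 CPM.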
